A study of Homo sapiens with 6 samples.

Results

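The genes of the MHC class II pathway described here were the α and β chains HLA-DRA, HLA-DRB1, HLA-DRB5, HLA-DPA1, HLA-DPB1, HLA-DQA1 and HLA-DQB1, the peptide-exchange chains HLA-DMA and HLA-DMB, and CD74. They were chosen by gene symbol: 10 genes of 58385 named ones, all of which were found. They fell in 9 of 61695 loci of the deposited count tables, in 9 of 63707 entries of the FPKM table and in 63 of 274669 transcripts. Messenger RNA was sequenced from EndoC-βH1, a human beta cell line made from fetal pancreas with transgenes for SV40 large T antigen and telomerase, so every library came from 1 line. The 3 cytokine libraries came from cells exposed for 24 h to IL-1β at 5 ng/ml, TNF-α at 10 ng/ml, IFN-γ at 50 ng/ml and IL-17 at 100 ng/ml together, and the 3 control libraries came from cells without the cocktail. All cells had adhered for 24 h at 75000 per well in serum-free medium with 11 mM glucose. The labels call the controls cells "before" exposure while the protocol describes the same period without cytokines, so the cocktail and time in culture cannot be told apart. Nothing in the labels says that the libraries stem from separate cultures, so the p-values reflect only how far these libraries vary, and that variation may be technical.

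MHC class II molecules carry peptides from endosomes to the cell surface and show them to CD4+ T cells. Each is a pair of an α and a β chain, in 3 surface isotypes called DR, DP and DQ. CD74, the invariant chain, binds newly made pairs, blocks their groove and steers them to endosomes, where proteases cut it down to a short fragment called CLIP. HLA-DM, the pair of HLA-DMA and HLA-DMB, then exchanges CLIP for a peptide. Dendritic cells, macrophages and B cells make these molecules constantly, and IFN-γ can induce them elsewhere through the transactivator CIITA. Proteins were not measured here.

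The authors' deposited count tables give a mean normalized count and a fitted log2 fold change per locus, cytokine over control, and no values per library. The normalized counts summed to 40881975 per library on average. A normalized count is a whole read count divided by a library size factor. At low loci this allowed the 6 whole read counts behind each mean to be solved: 16657 of 16657 loci with a mean of up to 2 had exactly 1 solution, within a relative tolerance of 4e-14. The libraries obtained in this way are called a, b and c within each group, since they could be tied to a group but not to a replicate number. Their size factors lay between 0.915 and 1.08 for the cytokine libraries and between 0.917 and 1.16 for the controls. Counts at CD74 were too high to be solved, so it has group means only. Intervals on reads cover counting error only.

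CD74 messenger RNA was abundant after cytokines, whereas the class II α and β chains were rare or undetected. In the authors' deposited count table, 7 of the 10 genes, in 6 of 9 loci, were higher in cytokine libraries at an adjusted p under 0.05, and 0 were lower. The same table called 18.0% of all 30206 tested loci higher, 19.7% lower and 37.7% in either direction, with a median log2 fold change of 0.05. In the authors' deposited FPKM table, 4 of 9 member entries were higher and 0 lower, where 17.8% of 21865 tested genes were higher and 17.9% lower. Of the other genes, HLA-DRB1 missed the threshold, HLA-DQA1 had 1 read and no adjusted p, and HLA-DRB5 had no read. HLA-DRA, HLA-DPA1, HLA-DPB1 and HLA-DQB1 held enough reads for a test only through the cytokine libraries, so the count of called genes carries no weight beyond the values of each gene. In bulk RNA, more cells with a transcript and more transcript per cell cannot be told apart.

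CD74 averaged 59492 normalized counts in cytokine libraries and 2180.1 in control libraries, from the mean and fold change in the authors' deposited table. That table gives a log2 fold change of 4.77 ± 0.026 (SE of the authors' fit, 3 libraries a group), which is 27.3-fold with a 95% interval of 26.3 to 28.3, and lists the adjusted p as 0. In FPKM, which scales fragments by transcript length and library depth, the authors' deposited table gives CD74 1100.0 in cytokine libraries and 38.4 in controls, with a log2 fold change of 4.84 and a Cuffdiff q of 0.000232. CD74 stood above 99.9% of the tested genes by FPKM in cytokine libraries and above 88.2% in controls. CD74 message was thus well above 0 in the controls, where the α and β chains held 0 or 1 read each. At least as large a log2 fold change was listed for 316 tested loci, or 1.05%, and for 66 of the 7868 loci with a mean of 1000 normalized counts or more.

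**Figure D1:**
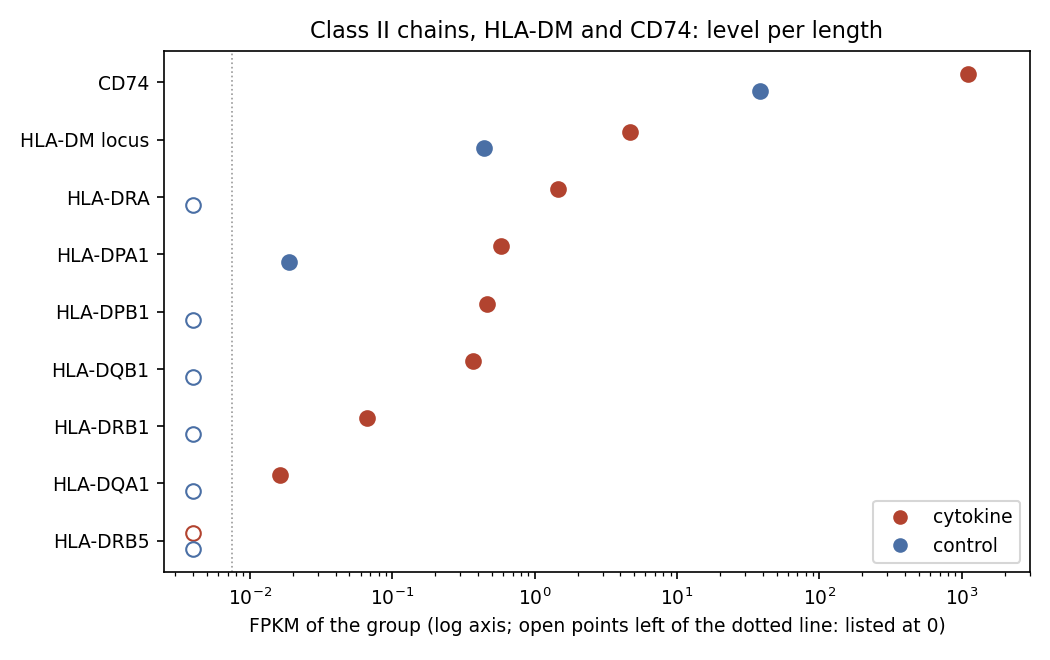
Levels of each class II gene in the authors' deposited FPKM table, cytokine beside control, on a log axis. CD74 reached 1100.0 FPKM in cytokine libraries and 38.4 in controls, the HLA-DM locus 4.64 and 0.438, and no other member passed 1.45 in either group.

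The CD74 gene is read into several messages, and 4 of its transcripts made up most of its signal. The gene lies at chr5:150401637-150412969 on the minus strand (hg38, GENCODE 44). The p33/p35 transcript, ENST00000353334, whose coding length of 696 bases over 8 exons encodes the short forms of the invariant chain, had 756 FPKM in cytokine libraries and 29.9 in controls in the authors' deposited table, with log2 fold change 4.66. The transcript ENST00000377795, which lacks 2 internal exons of that form of 96 and 88 bases, had 249 FPKM in cytokine libraries and 5.95 in controls, a log2 fold change of 5.39 in the authors' deposited table. The p41 transcript, ENST00000009530, with a coding length of 888 bases over 9 exons, had 79.4 and 2.24 FPKM in cytokine and control libraries in the authors' deposited table, with log2 fold change 5.14. ENST00000518797, annotated for nonsense-mediated decay, had 8.58 and 0.245 FPKM in cytokine and control libraries in the authors' deposited table. Each of the 4 had a Cuffdiff q of 0.000833 in the authors' deposited table. Across the class II genes, 6 of 63 transcripts were called higher and 0 lower, of 16 tested, where 5.17% of all 95649 tested transcripts were called higher. The remaining 2 called transcripts were ENST00000395388 of HLA-DRA, with 1.45 FPKM in cytokine libraries and 0 listed in controls, and ENST00000434651 of HLA-DQB1, with 0.259 and 0 listed, in the authors' deposited table. Also above 1 FPKM but not past the test were the CD74 transcripts ENST00000517752, with 2.57 and 0.0391 FPKM in cytokine and control libraries, and ENST00000517791, with 1.17 and 0 listed, both annotated as retained introns.

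The p33/p35 transcript made up 68.7% of the CD74 FPKM in cytokine libraries and 77.7% in controls, as computed from the authors' deposited table. ENST00000377795 made up 22.7% in cytokine libraries and 15.5% in controls, and the p41 transcript made up 7.21% and 5.84% in cytokine and control libraries. The share of the p33/p35 transcript was thus lower and the shares of the other coding transcripts higher in cytokine libraries. These shares carry no error, because the table holds no values per library, and the differences were not tested. The p41 transcript is set apart by 1 extra coding exon of 192 bases that encodes a thyroglobulin type-1 domain, known to inhibit cathepsin L. That exon is shown because it alone separates the coding sequence of the p41 message from that of the p33/p35 message. It is exon 7 of ENST00000009530 at chr5:150403121-150403312, minus strand, read from GRCh38.
Exon 7 of the p41 transcript: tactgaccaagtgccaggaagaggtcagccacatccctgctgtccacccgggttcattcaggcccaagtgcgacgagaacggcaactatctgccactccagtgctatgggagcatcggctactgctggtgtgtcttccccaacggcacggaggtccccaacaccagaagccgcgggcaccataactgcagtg

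**Figure D2:**
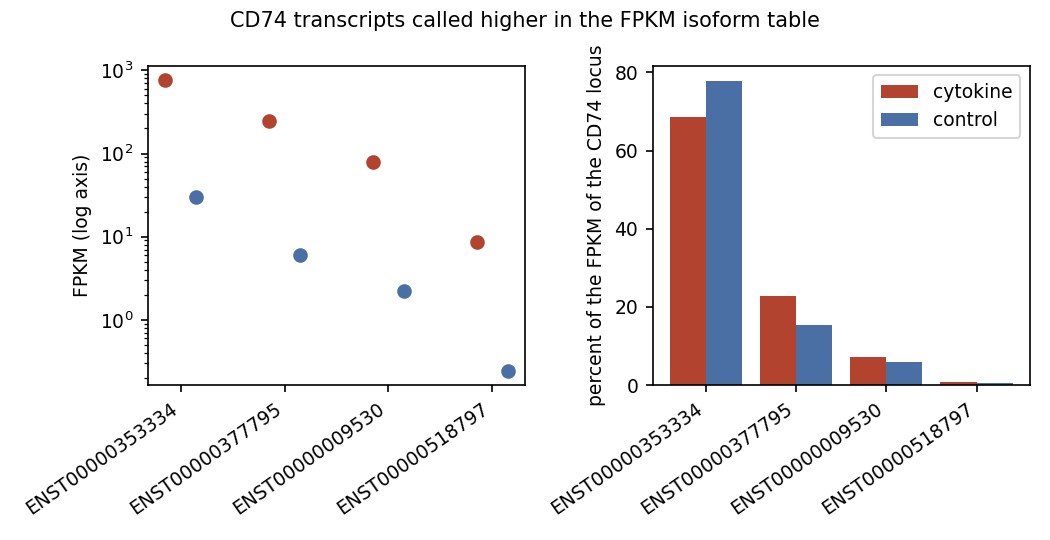
FPKM of the 4 CD74 transcripts called higher in the authors' deposited isoform table on a log axis (left) and their percent of the FPKM of the CD74 locus (right), cytokine beside control. ENST00000353334 had 756 FPKM in cytokine libraries and 29.9 in controls, at 68.7% and 77.7% of the locus.

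Among the α and β chains of the surface isotypes, HLA-DRA had the highest level in cytokine libraries, while HLA-DRB1 and HLA-DRB5 were near 0. HLA-DRA, at chr6:32439878-32445046 on the plus strand, encodes the nearly invariant DR α chain. It held 66, 59 and 89 reads in cytokine libraries a, b and c, against 0, 0 and 0 in controls. Normalized, these were 72.1, 63.9 and 82.4 counts, a mean of 72.8 ± 9.24 (SD, n = 3), against 0 in each control. Every cytokine library was above every control, and the level was at least 72.8-fold higher than a floor of 3 reads in all controls together, or 1 normalized count per library. In the authors' deposited table the adjusted p was 3.91e-12, and HLA-DRA had 1.45 FPKM in cytokine libraries and was listed at 0 in controls.

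HLA-DRB1, the polymorphic DR β chain at chr6:32577902-32589848 on the minus strand, held 2, 4 and 3 reads in the cytokine libraries and 1, 0 and 0 in the controls. The groups did not overlap, at means of 3.10 ± 1.11 and 0.363 ± 0.629 normalized counts in cytokine and control libraries (SD, n = 3 each). With 9 reads against 1, the ratio of normalized totals was 9.70 with a counting interval of 1.34 to 425. HLA-DRB1 did not pass the test, with an adjusted p of 0.138 in the authors' deposited table. HLA-DRB5, a second DR β gene carried only on some DR haplotypes, had no read in any library. By FPKM in cytokine libraries, HLA-DRA stood 22.1 times above HLA-DRB1 in the authors' deposited table. No locus of the authors' deposited count table carries the names of the further DR β genes HLA-DRB3 and HLA-DRB4, so their levels are not known.

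The DP isotype was the one with α and β chains at like levels. HLA-DPA1, the DP α chain, held 28, 28 and 39 reads in the cytokine libraries and 0, 0 and 1 in the controls. Its means were 32.4 ± 3.25 and 0.286 ± 0.496 normalized counts in cytokine and control libraries (SD, n = 3 each), and the groups did not overlap. The ratio of 95 reads to 1, normalized, was 102 with a counting interval of 17.9 to 4087. In the authors' deposited count table the adjusted p was 5.95e-07, while the authors' deposited FPKM table gave 0.581 and 0.0190 FPKM in cytokine and control libraries with a q of 0.411.

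HLA-DPB1, the DP β chain, held 20, 23 and 11 reads in the cytokine libraries and none in the controls, a mean of 19.0 ± 7.78 normalized counts (SD, n = 3). That is at least 19.0-fold above the floor, and library c was the lowest although it had the most HLA-DRA and HLA-DPA1. In the authors' deposited count table the adjusted p was 9.94e-07, while the FPKM test missed its threshold with a q of 0.224 at 0.459 FPKM in cytokine libraries and 0 listed in controls. By FPKM the α chain stood 1.26 times above the β chain in the authors' deposited table, less than the spread of HLA-DPB1 between libraries, whose SD was 40.97% of its mean. The genes overlap head to head at chr6:33064569-33080775 on the minus strand and chr6:33075990-33089696 on the plus strand. No source used here gives the strand setting of the counting, so reads in the overlap cannot be assigned with certainty.

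In the DQ isotype the β chain was found almost without its partner. HLA-DQB1, at chr6:32659467-32668383 on the minus strand, held 20, 15 and 30 reads in the cytokine libraries and none in the controls. Its mean was 22.0 ± 5.76 normalized counts (SD, n = 3) against 0, at least 22.0-fold above the floor. In the authors' deposited table its adjusted p was 2.33e-07, and it had 0.368 FPKM in cytokine libraries and 0 listed in controls with a q of 0.000232. HLA-DQA1, the DQ α chain at chr6:32628179-32647062 on the plus strand, held 1 read in 1 cytokine library and none elsewhere, so no fold is given. In FPKM the β chain stood 22.7 times above the α chain in cytokine libraries in the authors' deposited table.

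**Figure D3:**
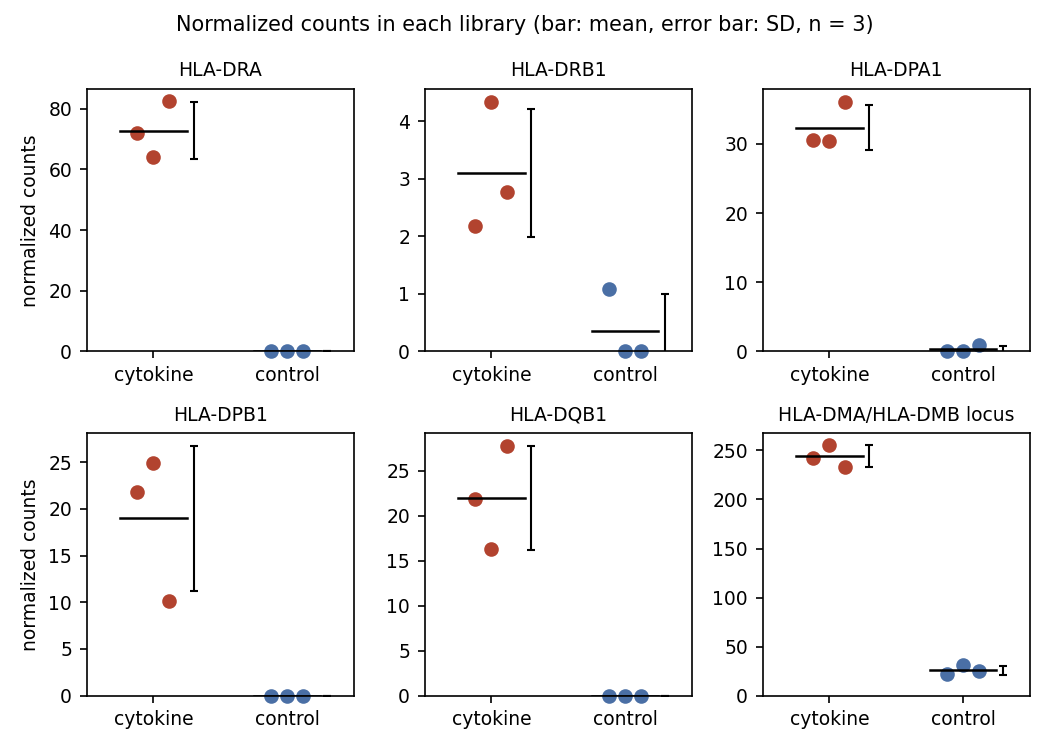
Normalized counts per library for the 6 class II loci at which the groups did not overlap, cytokine left of control, with the mean and SD of 3 libraries. By this choice of loci, every cytokine library stood above every control, with HLA-DRA at 63.9 to 82.4 against 0 in the controls.

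The exact two-sided permutation test over the 3 cytokine and 3 control libraries gave p = 0.1 at each of the 6 loci where the groups did not overlap. That is the smallest value that 3 against 3 allows, and groups without overlap always give it, so it adds no support. The share of all loci without overlap was not computed. The 7 α and β chains summed to 2.95 FPKM in cytokine libraries and 0.0190 in controls in the authors' deposited table. By FPKM in cytokine libraries the order was CD74, the HLA-DM locus, HLA-DRA, HLA-DPA1, HLA-DPB1, HLA-DQB1, HLA-DRB1 and HLA-DQA1. The neighbours HLA-DPA1, HLA-DPB1 and HLA-DQB1 lay within the spread of HLA-DPB1 between libraries. CD74 was 373 times the chain sum in cytokine libraries and 2027 times in controls. The control sum came from HLA-DPA1 alone, which held 1 read in 1 control library, so the ratio in controls has no usable precision. Chains of unlike abundance within a pair are hard to read for these genes, since HLA genes differ greatly between people and the deposited table lists 25 chromosomes and 0 alternate contigs. HLA-DRB1 and HLA-DRB5 coding sequences of the reference are 94.1% identical over 798 bases each, so reads can be split between them or dropped. Other pairs were less alike, with 72.8% for HLA-DRA and HLA-DPA1 and 74.02% for HLA-DRB1 and HLA-DQB1. How the alleles of this line match the reference was not tested.

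The locus of HLA-DM had reads in every library, though not all of them need belong to HLA-DMA or HLA-DMB. The counts of HLA-DMA and HLA-DMB, at chr6:32948613-32969094 and chr6:32934629-32941028 on the minus strand, stand in 1 locus of the authors' deposited table together with AL645941.1 and XXbac-BPG181M17.5, so they cannot be separated. This locus held 222, 236 and 252 reads in the cytokine libraries and 20, 33 and 29 in the controls. The means were 243.9 ± 11.3 and 25.9 ± 4.68 normalized counts in cytokine and control libraries (SD, n = 3 each), with no overlap. The ratio was 9.33 with a counting interval of 7.42 to 11.9, and the authors' deposited table gives a log2 fold change of 3.23 ± 0.21 (SE) with an adjusted p of 8.76e-52. Its FPKM was 4.64 in cytokine libraries and 0.438 in controls in the authors' deposited table, with a q of 0.000232. The HLA-DMA transcript ENST00000374843 had 1.42 FPKM in cytokine libraries and 0 listed in controls but did not pass, with a q of 0.475 in the authors' deposited table. By gene, transcripts of HLA-DMA summed to 2.04 FPKM in cytokine libraries and 0.153 in controls and those of HLA-DMB to 1.25 and 0.0172, in the authors' deposited table.

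Promoters of these genes carry a known module of boxes, of which the X box is bound by the RFX complex and the Y box by NF-Y, and CIITA docks on the factors bound there. Stretches from the 250 bases before each start are shown because CIITA, itself higher here, acts through these boxes. The motifs were spelled out after the promoters of these genes had been read. AGNNACNGA stands for the X box and ATTGG, or its reverse complement CCAAT, for the Y box, each searched on both strands. Capitals mark at most 1 match of each motif per entry, so further matches are not marked. HLA-DMB has 2 X matches, and the one on the other strand, which overlaps its CCAAT, is not marked. Sequences and coordinates are RefSeq's on GRCh38.p14, 5′ to 3′ on the strand of the gene, and 9 of the 10 genes had an entry, with 2 for HLA-DPA1 and none for HLA-DRA. The stretches lie at chr6:32589882-32589935 (HLA-DRB1), chr6:32530365-32530418 (HLA-DRB5), chr6:32666733-32666786 (HLA-DQB1), chr6:32637296-32637350 (HLA-DQA1), chr6:32953164-32953218 (HLA-DMA), chr6:32941036-32941126 (HLA-DMB), chr6:33073730-33073758 (HLA-DPA1), chr6:33075905-33075929 (HLA-DPB1) and chr5:150412949-150412973 (CD74).
HLA-DRB1: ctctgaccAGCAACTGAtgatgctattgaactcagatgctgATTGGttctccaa
HLA-DRB5: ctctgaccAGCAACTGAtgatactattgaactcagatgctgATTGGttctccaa
HLA-DQB1: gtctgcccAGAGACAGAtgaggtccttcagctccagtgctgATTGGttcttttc
HLA-DQA1: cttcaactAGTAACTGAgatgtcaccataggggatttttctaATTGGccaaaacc
HLA-DMA: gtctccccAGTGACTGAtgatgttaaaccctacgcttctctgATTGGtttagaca
HLA-DMB: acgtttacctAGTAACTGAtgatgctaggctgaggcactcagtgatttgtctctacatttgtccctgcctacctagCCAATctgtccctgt
HLA-DPA1: ctctttacccAGCAACAGAgaatgtcagc
HLA-DPB1: cagactctgtCCAATcccagggtca
CD74: ccctgggcagCCAATgggatcgtgc

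An X match followed on the same strand by a Y match 5 to 40 bases on was found in 5 of 10 entries, against 136 of all 35116 promoters, or 0.387%. Because the motifs were spelled out from these same promoters, this contrast and the shares of X and Y matches below carry no weight as support. The gap was 24 bases in HLA-DRB1, HLA-DRB5 and HLA-DQB1, and 25 bases in HLA-DQA1 and HLA-DMA. In the reference, HLA-DRB5, without a read in any library, and HLA-DQA1, with 1, hold the same module as HLA-DQB1. Whether the alleles of this line carry it was not tested. Counted with or without the other motif, an X match stood in 7 of 10 entries and in 12.3% of all promoters, and a Y match in 8 of 10 and 32.01%. HLA-DMB holds 2 X matches and a CCAAT, CD74 and HLA-DPB1 a CCAAT without an X match, and HLA-DPA1 an X match without a Y match in 1 of its 2 entries. A match is a description of letters, not of a bound site.

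The transactivator and RFX5 were higher in cytokine libraries, while 3 loci of the factors CIITA docks on were lower. The CIITA locus, which also holds RP11-876N24.3 and RP11-876N24.4, averaged 1192 normalized counts in cytokine libraries and 16.5 in controls, a log2 fold change of 6.17 ± 0.21 (SE) in the authors' deposited table. The same locus had 6.96 and 0.356 FPKM in cytokine and control libraries, a log2 ratio of 4.29 in the authors' deposited FPKM table, so the tables differ in the size of the difference. RFX5, the largest subunit of the RFX complex, averaged 3695 and 1627 normalized counts in cytokine and control libraries in the authors' deposited table, with log2 fold change 1.18. The locus of NFYA, and NFYB, which encode NF-Y subunits, and RFXAP, an RFX subunit, were lower, with log2 fold changes of -0.27, -0.25 and -0.25 in the authors' deposited table. RFXANK, NFYC and CREB1 did not pass, at 0.09, -0.035 and -0.13. Of these 8 transactivation loci, 2 were higher, 3 lower and 3 not past the test, with a median log2 fold change of -0.08. Over all tested loci, 18.0% were higher and 19.7% lower, with a median of 0.05, so the count higher is near that share.

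Of the genes that cut the invariant chain or process antigen, 6 of 9 were higher and 2 lower, where 18.0% of all tested loci were higher and 19.7% lower. Their median log2 fold change was 0.49 in the authors' deposited table. CTSS encodes cathepsin S, which makes the last cut of the invariant chain in antigen-presenting cells. It averaged 14005 normalized counts in cytokine libraries and 21.9 in controls, and 250 and 0.375 FPKM, in the authors' deposited tables. LGMN, an asparaginyl endopeptidase of endosomes, CTSL, cathepsin L, and CTSB, cathepsin B, had log2 fold changes of 1.08, 0.58 and 0.33 in the authors' deposited table. SPPL2A, a membrane protease that clears the last fragment of the invariant chain, had 0.49. The locus of IFI30, an endosomal thiol reductase, had 1.82 but also holds PIK3R2. CTSH and CTSV, further cathepsins, were lower at -1.17 and -1.38, and the CTSD locus did not pass at 0.05.

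Genes of the DO pair, which tempers HLA-DM, and of class II turnover gave fewer readable values. HLA-DOA held 4, 1 and 5 reads in the cytokine libraries and 0, 1 and 0 in the controls, with an adjusted p of 0.117 in the authors' deposited table. Cytokine library b and control library b held 1 read each. HLA-DOB shares a locus with TAP2, at 58293 normalized counts in cytokine libraries and 749 in controls in the authors' deposited table, so no value is given for it alone. HLA-DQA2 and HLA-DQB2 held 1 read each over all 6 libraries, and HLA-DRB6 held none. HLA-DRB3 and HLA-DRB4 were searched for, but no locus of the authors' deposited count table carries their names. Of the turnover genes, MARCH8, a ubiquitin ligase that removes class II from the surface, and CD83, which counters the related MARCH1, were higher at 0.58 and 0.31. MARCH1 did not pass at 0.14, in the authors' deposited table.

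Of the IFN-γ signalling genes, 6 of 7 were higher and 0 lower in the authors' deposited table, where 18.0% of all tested loci were higher, and their median log2 fold change was 3.91. The transcription factor IRF1, which drives CIITA, had a log2 fold change of 6.67, and SOCS1, a feedback inhibitor, had 6.06. JAK2 had 3.91 and the receptor chain IFNGR2 0.40, while IFNGR1 did not pass at -0.08. Class I chains, which present peptides to CD8+ T cells, were higher at 4 of 4 loci with a median of 5.72, beside the same 18.0%. HLA-E had 1310 FPKM in cytokine libraries and 93.0 in controls, and B2M, the light chain of class I, had 12950 and 765, in the authors' deposited table. CD74 at 1100.0 FPKM in cytokine libraries was near HLA-E, whereas the class II chain sum of 2.95 FPKM was far under either.

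**Figure D4:**
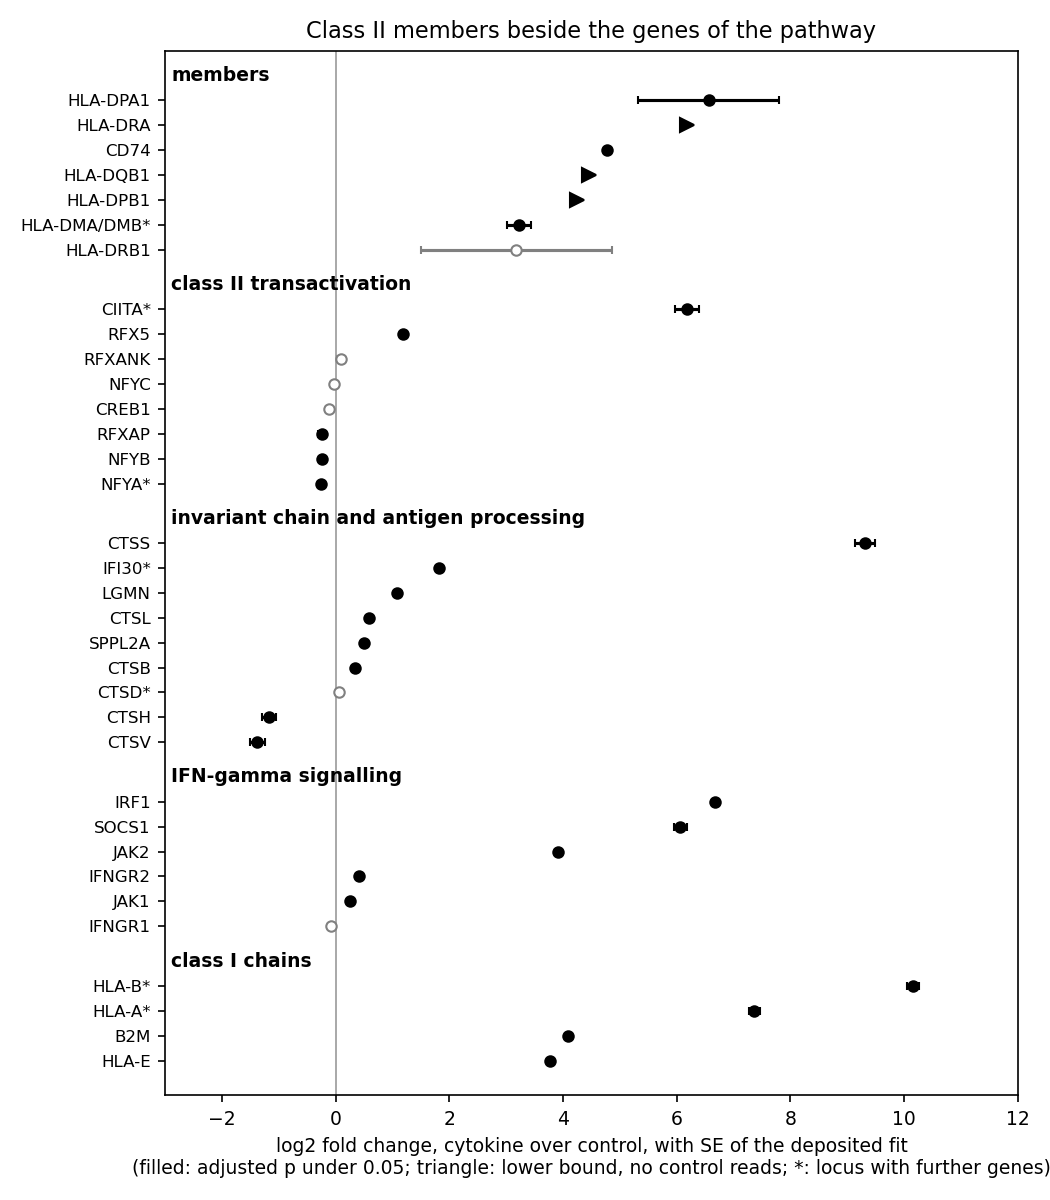
Log2 fold changes, cytokine over control, with the SE of the authors' deposited fit, for the class II members and genes of 4 pathway lists. Filled points passed an adjusted p of 0.05, triangles are lower bounds for genes without control reads, and asterisks mark loci that hold further genes; CIITA at 6.17 and CTSS at 9.32 stand apart from the other genes of their lists.

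The loci most like CD74 in abundance and change were LAP3, APOL6, FN1, OAS3 and PARP14. They were the nearest in log2 fold change among 203 single-gene loci with a mean within 2-fold of that of CD74, in 1 comparison. LAP3, a leucine aminopeptidase, and APOL6, an apolipoprotein L, had log2 fold changes of 5.20 and 5.23 in the authors' deposited table, against 4.77 for CD74. FN1, fibronectin, had 3.95, OAS3, an antiviral oligoadenylate synthetase, 3.35 and PARP14, an ADP-ribosyltransferase, 6.42.

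Among markers of other cell types, most were at a few reads or none and a few were well above 0. MS4A1, of B cells, held 1 read in cytokine libraries and 0 in controls, and PTPRC, of all leukocytes, 2 and 8, while ITGAX, of dendritic cells, held none. Of 25 markers of B cells, myeloid cells, T cells, endothelium and fibroblasts, 17 were under 10 mean normalized counts and 3 had no read. Higher ones were PAX5, a B cell factor with 3743 and 3277 normalized counts in cytokine and control libraries, and COL1A1, of fibroblasts, at log2 fold changes of 0.19 and 1.39, and lower ones AIF1 and the CD68 locus, both of macrophages, at -1.41 and -0.12, in the authors' deposited table. AIF1 had 12.4 and 32.9 normalized counts in cytokine and control libraries, and the CD68 locus, which also holds EIF4A1, had 22526 and 24413, in the authors' deposited table. CD14, of monocytes, and CSF1R, of macrophages, did not pass, with 75.4 and 17.3 normalized counts in cytokine libraries and 92.9 and 9.10 in controls in the authors' deposited table. Their part in the class II values was not tested. The beta cell factors PDX1 and NKX6-1 had 16950 and 4809 normalized counts in cytokine libraries and 17183 and 4815 in controls in the authors' deposited table, and neither passed the test. Of the 8 beta cell loci, 2 were higher, 4 lower and 2 not past the test. The IAPP locus, which also holds SLCO1B1, and CHGA were higher at log2 fold changes of 2.25 and 1.12, while MAFA, SLC30A8, the INS locus and PCSK1 were lower at -1.63, -0.63, -0.57 and -0.27, in the authors' deposited table. The INS locus also holds IGF2, H19 and ASCL2, so its value is not that of INS alone.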

How the data were processed

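Poly(A) RNA of 3 cytokine and 3 control samples of EndoC-βH1 was made into directional libraries, per the labels' protocols. Per the submitters' processing notes, the tools were FastQC 0.10.1, bcl2fastq, the aligner STAR 2.5.2b, Cuffdiff 2.2.1, DESeq and StringTie, and the build was hg38. No source used here gives the read counter, its strand setting or the annotation. The authors deposited mean normalized counts as a signal, log2 fold changes with their SE, a test statistic (a score), and p-values with adjusted p-values, per locus. The authors also deposited FPKM values, log2 fold changes and q-values per gene and per transcript from Cuffdiff. The count table without gene names has no header, and its columns were read in the order of the named table.

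The tables hold no values per library, so the planned count model could not be fitted, and the authors' adjusted p under 0.05 was used. Adjusting the deposited p-values again over the 30206 tested loci gave the deposited adjusted values. A further 17081 loci had no reads and 14408 had reads but no adjusted p. Whole reads per library were solved for loci with a mean of up to 40, and for the HLA-DM locus within 0.1 of its deposited log2 fold change. For 8859 loci with reads in both groups and a mean of up to 2, the median absolute difference from the deposited log2 fold change was 0.055. The procedure was tested on simulated data. Floors are 3 reads over a group.

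Some genes of the lists are not reported here by name. The genes and lists were chosen with earlier results of these data known. Named are all 10 genes, their transcripts above 1 FPKM in either group, genes of the lists, and for likeness to CD74 the 5 single-gene loci with a mean within 2-fold of its own and the nearest log2 fold change. Values were computed with Python 3.11.15, pandas 2.3.3, numpy 2.4.6 and scipy 1.17.1, and plotted with matplotlib 3.10.9.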

Additional observations from a re-analysis of the deposited data

How the results depend on the processing

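Of the alternatives to the count table's 6 higher member loci, a threshold of 0.01, no filter on low counts and re-centring on loci of at least 1000 counts (a shift of -0.056) each gave 6. Adjusting over loci of at least 10 counts, where HLA-DPB1 falls out, gave 5, loci with no other coding gene gave 5, and the authors' FPKM table gave 4. Among the other pathway loci, 27 were higher (22 to 28 under the alternatives) and 6 lower (5 to 7). In the FPKM table, 2 of the 4 higher members had levels above 0 in both groups. At the floor, log2 bounds were 6.19 for HLA-DRA, 4.46 for HLA-DQB1 and 4.25 for HLA-DPB1, against fitted values of 8.69, 6.97 and 6.74 in the authors' deposited table. HLA-DPA1 had 6.56 in the count table and 4.94 with a q of 0.411 in the FPKM table; the cause was not tested. With 1 FPKM added, log2 differences were 4.80 for CD74, 0.63 for HLA-DPA1 and 1.97 for the HLA-DM locus; with 0.1 FPKM added, HLA-DPA1 had 2.52 and the HLA-DM locus 3.14. An alternative chosen after seeing the data left out 1 cytokine library at a time. Cytokine means then ran from 68.0 to 77.3 normalized counts for HLA-DRA, 19.1 to 24.8 for HLA-DQB1, 30.5 to 33.4 for HLA-DPA1, 16.0 to 23.4 for HLA-DPB1, 2.48 to 3.56 for HLA-DRB1 and 238.0 to 249.2 for the HLA-DM locus. No paired analysis was possible because the tables hold no columns per library and solved libraries cannot be tied to replicate numbers. For the same reason fits without each replicate and with another normalization were not run. HLA-DQA1 and HLA-DRB5 lay under the floor, where a difference was not detectable, and the part of depth in this was not tested.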

Other observations

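Of the 7 loci of costimulatory and coinhibitory genes, whose products T cells read beside class II, 4 were higher in the authors' deposited table, 1 did not pass and 2 had no adjusted p, where 18.0% of all tested loci were higher. CD40 held 11, 18 and 25 reads in the cytokine libraries and 1, 0 and 0 in the controls, with an adjusted p of 3.76e-05 in the authors' deposited table. CD86 held 11, 7 and 15 reads in the cytokine libraries and 11, 8 and 11 in the controls and did not pass, and CD80 held 1 read in all. CD274, an inhibitory ligand, averaged 7305 normalized counts in cytokine libraries and 118 in controls in the authors' deposited table, with log2 fold change 5.95. The 2 loci named ICOSLG, both among the 4 higher ones, had log2 fold changes of 4.73 and 4.65 in the authors' deposited table. Their levels were low, at 0.116 and 0.0727 FPKM in cytokine libraries and 0.00115 and 0.00590 in controls, and Cuffdiff did not test them. PDCD1LG2 had no read.

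CD74 is also a surface receptor for the cytokine MIF, with CD44, CXCR4 or CXCR2 as partner. CD44 had a log2 fold change of 1.33 and the MIF locus, which holds SLC2A11 too, had 0.21, both higher in the authors' deposited table. The DDT locus, of a MIF homologue, was lower at -0.27, and CXCR4 did not pass at -0.38 with 14.9 normalized counts in cytokine libraries and 19.4 in controls. CXCR2 held 5 reads in the cytokine libraries and none in the controls.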
